A study of Mus musculus with 22 samples.

Results

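The loci of Prdm1 and Bcl6 were described in peak lists of mouse regulatory T cells (Treg cells). Every peak within the annotated span of either gene, or within 50 kb on each side, was taken. Of 362285 peaks in 18 lists, 152 were found there, 117 at Prdm1 and 35 at Bcl6. Joined within each target where they overlapped, they formed 68 of 161247 regions, 53 at Prdm1 and 15 at Bcl6.

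Prdm1 encodes Blimp1, a zinc finger repressor that drives plasma cell differentiation in B cells and terminal effector differentiation in T cells. In Treg cells Blimp1 marks the effector state, in which interleukin 10 is made. Bcl6 encodes a zinc finger repressor of the POZ family that is required in germinal centre B cells and in follicular T cells, including follicular regulatory T cells. Each of the 2 proteins represses the gene of the other, and the balance between them separates effector from follicular and memory-like fates.

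The lists came from chromatin immunoprecipitation sequencing (ChIP-seq) of primary Treg cells purified from spleen and lymph nodes and stimulated for 1 h with a product named Cell Stimulation Cocktail. Wild-type (WT) cells were compared with cells whose genotype is labelled IkE5-deletion, written IkE5 here; the design text calls these cells deficient, no age, strain or driver of the deletion is given, and the series title names Ikzf1, the gene of Ikaros. The lineage factor Foxp3, the acetyltransferase p300, the calcium-activated factor NFAT1 and H3K27ac, an acetylation of histone H3 found at active regulatory DNA, had 2 libraries per genotype, and Ikaros had 2 libraries in WT only. The labels do not tie the libraries to animals, so the spread between them may be technical, and the p-values measure that spread alone. These are bulk preparations, in which a mark on fewer cells and a weaker mark in each cell cannot be told apart.

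The libraries differed in the number of peaks called. Foxp3 lists held 16526 to 21619 peaks, p300 lists 8775 to 11670, Ikaros lists 22297 and 26641, and H3K27ac lists 35272 to 53032 peaks covering 54.6 to 79.6 Mb. The NFAT1 lists were shorter in IkE5, with 4908 and 3435 peaks against 7825 and 6850 in WT, so an NFAT1 peak missing in IkE5 cannot be told apart from a shorter list. The lists carry no scores or reads, and read depth is unknown. With 2 libraries against 2 the smallest possible 2-sided exact permutation p is 0.33. H3K27ac covered every one of 8 Treg marker genes in these lists, among them Foxp3, Il2ra and Ctla4, as it did at least in part 77.3% of all gene windows, and 0 of them passed the limma test described below (0 also at an unadjusted p under 0.05).

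Both genes lie on the minus strand. Prdm1 spans chr10:44437174-44528558 in the RefSeq annotation of GRCm38.p6 (mm10), but its listed start of transcription is at 44458748, so the annotated span reaches 69.8 kb upstream of that start. Bcl6 spans chr16:23965050-23988866, with listed starts at 23988852 and 23981283. Distances below run from the listed start of Prdm1 and from the upstream start of Bcl6. The other annotated genes of the windows are the long noncoding RNA genes Gm35028, beyond the far end of Prdm1, and Gm31527, which overlaps the start of Bcl6, and Rtp2, beyond the far end of Bcl6. Exons, introns and untranslated regions are not told apart in the annotation used.

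The 250 bases before each listed start are shown because factor peaks were called over the Prdm1 promoter and over neither Bcl6 promoter. They are taken from RefSeq (GRCm38.p6) and run 5′ to 3′ on the minus strand, at chr10:44458749-44458998 for Prdm1, chr16:23988853-23989102 for the upstream and chr16:23981284-23981533 for the downstream promoter of Bcl6. Capitals mark matches, on either strand, to the Ikaros core, spelled TGGGAA. They also mark the forkhead motif, spelled GTAAACA. The other marked motifs are that of AP-1, spelled TGANTCA, and the form bound by STAT factors, spelled TTCNNNGAA.
Prdm1: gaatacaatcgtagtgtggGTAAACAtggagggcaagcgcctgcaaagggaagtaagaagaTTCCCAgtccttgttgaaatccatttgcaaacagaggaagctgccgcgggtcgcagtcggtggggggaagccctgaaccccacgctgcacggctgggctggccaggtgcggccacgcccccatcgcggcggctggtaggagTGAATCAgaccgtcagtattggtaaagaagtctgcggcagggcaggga
Bcl6 upstream: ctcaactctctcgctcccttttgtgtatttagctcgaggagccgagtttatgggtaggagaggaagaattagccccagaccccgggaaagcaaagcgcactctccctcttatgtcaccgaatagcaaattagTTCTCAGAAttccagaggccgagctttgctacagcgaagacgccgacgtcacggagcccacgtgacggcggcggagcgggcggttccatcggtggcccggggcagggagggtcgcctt
Bcl6 downstream: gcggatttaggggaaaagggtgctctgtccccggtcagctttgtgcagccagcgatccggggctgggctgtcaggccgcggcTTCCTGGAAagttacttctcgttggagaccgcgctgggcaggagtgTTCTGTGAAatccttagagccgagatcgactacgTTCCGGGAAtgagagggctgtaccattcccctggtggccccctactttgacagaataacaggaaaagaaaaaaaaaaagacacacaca

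The Prdm1 promoter held 1 match each of the Ikaros, forkhead and AP-1 motifs. Of the 32851 promoters listed by RefSeq, 21.6% held the Ikaros core, 3.17% the forkhead and 6.75% the AP-1 motif within the same 250 bases. Neither Bcl6 promoter held any of these 3 motifs. The STAT form was found once in the upstream and 3 times in the downstream Bcl6 promoter, and not in the Prdm1 promoter. At least 1 match was present in 7.02% of all promoters and 3 or more in 0.0274%. The NFAT core, spelled GGAAA and not capitalised, was searched too and was present in 55.6% of promoters. It was absent from the Prdm1 promoter, the only 1 of these promoters with NFAT1 peaks. At Bcl6 it was found once upstream and 3 times downstream, where 1 match overlaps a match of the STAT form. A match describes these letters only.

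Over the Prdm1 promoter, Foxp3 was called in both WT libraries and in 1 of 2 IkE5 libraries. NFAT1 was called there in both WT and in 1 IkE5 library, Ikaros in both of its libraries, p300 in 1 IkE5 library and no WT library, and H3K27ac in all 4. The joined site of the factors (chr10:44458495-44459176) thus had a peak in 9 of the 14 factor libraries. No factor peak overlapped either Bcl6 promoter in any library, whereas H3K27ac covered both promoters in all 4.

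The Prdm1 window was denser than the median gene window for all 5 targets, and the Bcl6 window for NFAT1, Ikaros and H3K27ac but not for Foxp3 and p300. For NFAT1 that median was 0, as only 48.3% of windows held any region, so a single region exceeds it. Peaks of the 4 factors joined into 16 sites at Prdm1 and 5 at Bcl6. Foxp3 had 12 regions in the Prdm1 window, or 6.27 per 100 kb, against a median of 2.19 over the windows of 21887 protein-coding genes, and 10.5% of genes were at least as dense. For p300 the window held 10 regions (5.23 per 100 kb), and 4.10% of genes were at least as dense. NFAT1 had 5 regions at Prdm1 (2.61 per 100 kb), a density reached by 9.03% of genes. At Bcl6 each of Foxp3, p300 and NFAT1 had a single region, or 0.81 per 100 kb, which was reached by 69.8% of genes for Foxp3, 55.4% for p300 and 38% for NFAT1. Ikaros had 9 regions at Prdm1 and 4 at Bcl6, densities of 4.70 and 3.23 per 100 kb that 23% and 37.8% of genes reached. H3K27ac had 17 and 8 regions, densities of 8.88 and 6.46 per 100 kb that 18.4% and 31.5% of genes reached.

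**Figure D1:**
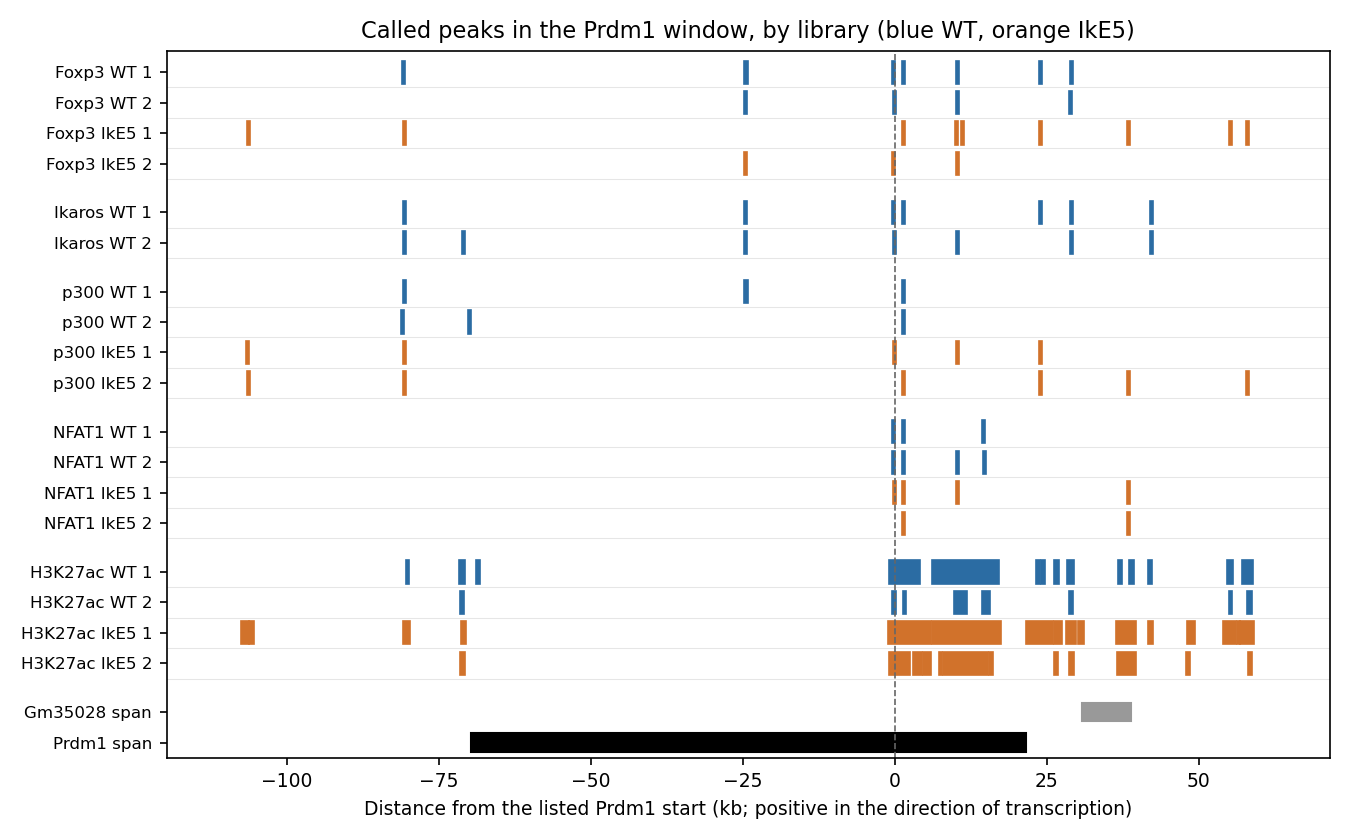
Peaks in the Prdm1 window, 1 row per library (blue WT, orange IkE5), against the distance in kb from the listed start (dashed line; positive values lie in the direction of transcription); boxes mark the called intervals, and the lower rows show gene spans. The p300 rows of IkE5 hold 5 and 6 peaks and those of WT 3 each, and H3K27ac of WT 2 covers the least.

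Among the 16 factor sites at Prdm1, 3 were marked by all 4 factors in at least 1 library and 6 by a single factor, shares of 18.8% and 37.5% against 18.2% and 40.4% of the 44553 sites genome-wide. The site 1.44 kb downstream of the start (chr10:44457005-44457617) was the most regularly called, in 10 of 14 libraries. It had NFAT1 in all 4 libraries, p300 in both WT and 1 IkE5 library, Foxp3 in 1 library of each genotype, and Ikaros in 1. The site 10.3 kb downstream (chr10:44448097-44448781) was the only one with Foxp3 in all 4 libraries. It had NFAT1 in 1 library of each genotype, p300 in 1 IkE5 library and Ikaros in 1.

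Beyond the gene, the site 80.8 kb upstream of the start (chr10:44539171-44539934) was the only one with p300 in all 4 libraries. It had Ikaros in both libraries and Foxp3 in 1 library of each genotype, without NFAT1. The site 24.5 kb upstream (chr10:44482976-44483565), within the annotated span, had Foxp3 in both WT and 1 IkE5 library, Ikaros in both, p300 in 1 WT library and no H3K27ac in any library.

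The overlap of Foxp3 with Ikaros in the windows was near that of the whole series. Of 13 Foxp3 regions, 12 of them at Prdm1, 8 (61.5%) overlapped a peak of either Ikaros library, against 68.6% of the 34646 Foxp3 regions of the series. With a peak required in both Ikaros libraries, 5 of 13 (38.5%) overlapped, against 44.2%. All 5 of those with Foxp3 in both WT libraries overlapped Ikaros, against 97.1% of 10987. The 5 regions without Ikaros were each called in a single Foxp3 library, IkE5 1.

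Foxp3 at Prdm1 did not separate the genotypes. The WT lists had 7 and 4 Foxp3 peaks in the window and the IkE5 lists 9 and 3, giving WT a mean of 5.5 ± 2.12 and IkE5 a mean of 6.0 ± 4.24 (SD over 2 libraries; exact permutation p = 1). The highest and the lowest number were both in IkE5. The direction turned without WT replicate 2 (a difference of -1 peak, IkE5 minus WT) and without IkE5 replicate 1 (-2.5). Of the 12 regions 1 was in all 4 libraries (22.5% of all Foxp3 regions), 0 were found in both IkE5 and neither WT library (IkE5 only, 3.22% of all), and 1 was in both WT and neither IkE5 library (WT only, 2.44% of all). That region lay 29.05 kb downstream (chr10:44429372-44430018), beyond the end of the gene. Both Ikaros libraries had a peak there, and H3K27ac was present in all 4 libraries. At least 1 WT only Foxp3 region was present in 8.76% of all gene windows, of which 75.4% held any Foxp3 region. Windows as dense in Foxp3 as that of Prdm1 were not counted apart.

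The coactivator p300 had more peaks at Prdm1 in both IkE5 libraries than in both WT libraries. The WT libraries held 3 and 3 p300 peaks and the IkE5 libraries 5 and 6, giving WT a mean of 3.0 ± 0 and IkE5 a mean of 5.5 ± 0.71 (SD over 2 libraries; exact permutation p = 0.33). The groups did not overlap. Among 14074 gene windows with any p300 peak, 7.55% showed the same order. Per 10000 peaks of the library the means were 3.02 ± 0.57 and 5.49 ± 1.7. Within 10 kb of the gene the difference was 0.5 peaks instead of 2.5, so most of the additional peaks lay farther out.

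Of the 10 p300 regions at Prdm1 1 was in all 4 libraries (22.9% of all p300 regions), 0 were WT only (5.63% of all) and 2 were IkE5 only (6.01% of all). At least 2 IkE5 only p300 regions were found in 1.06% of all gene windows, of which 64.3% held any p300 region. The Prdm1 window held 10 regions, a density that 4.10% of genes reached, and windows of like density were not counted apart. The first, 24.0 kb downstream of the start and just beyond the end of the gene (chr10:44434513-44435056), overlapped Foxp3 in 1 library of each genotype and Ikaros in 1 library. The second lay 106 kb upstream (chr10:44564914-44565547), with Foxp3 in 1 IkE5 library and H3K27ac in 1 IkE5 library. No WT peak of any factor was called at the second.

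NFAT1 at Prdm1 was called in WT at 3 and 4 sites and in IkE5 at 4 and 2 sites. The means were 3.5 ± 0.71 and 3.0 ± 1.41 (SD over 2 libraries; exact permutation p = 1), although the IkE5 lists as a whole were shorter. Per 10000 peaks of the library the means were 4.84 ± 1.42 in WT and 6.99 ± 1.65 in IkE5, the opposite direction (exact permutation p = 0.667). Without IkE5 replicate 2 the difference in peaks was 0.5, and without WT replicate 2 it was 0. Of the 5 regions 1 was in all 4 libraries (17.5% of all NFAT1 regions), 1 was WT only (19.4% of all) and 1 IkE5 only (3.72% of all). The WT only region lay in the gene, 14.7 kb downstream (chr10:44443792-44444325), with no peak of another factor.

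The IkE5 only NFAT1 region lay 38.45 kb downstream in Gm35028 (chr10:44420039-44420565). Foxp3 was called there in IkE5 1 and p300 in IkE5 2, and no WT factor library had a peak. H3K27ac covered 3.26 and 3.13 kb around it in IkE5, against 1.41 and 0 kb in WT. These lengths are unscaled, and the 0 was in WT 2, the library with the least H3K27ac coverage genome-wide (54.6 Mb). The share of like regions in the same order was not counted. At least 1 IkE5 only NFAT1 region was present in 2.83% of all gene windows, of which 48.3% held any NFAT1 region. The Prdm1 window held 5 regions, a density that 9.03% of genes reached, and windows of like density were not counted apart.

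H3K27ac at Prdm1 covered 26.5 kb in WT 1 and 7.32 kb in WT 2, against 41.0 kb in IkE5 1 and 21.5 kb in IkE5 2. WT 2 was the lowest and IkE5 1 the highest, and the groups overlapped, since WT 1 exceeded IkE5 2. Scaled for how much of the genome each library covered, the values were 22.4 and 9.02 kb in WT and 37.9 and 23.4 kb in IkE5. These did not overlap, but the share of all windows in the same order was not counted, so the order alone says little. The log2 difference (IkE5 minus WT, of the scaled length + 1000 bp) was 1.01 ± 0.39 (SE). Its limma adjusted p, taken over 15721 gene windows, was 0.286 and did not pass 0.05. A difference at least as high was found in 2.04% of these windows, and the median over all of them was -0.02. The call depended on single libraries; where a genotype was left with a lone library, that library was assumed to vary like the other group. Without WT replicate 1 the difference was 1.61 (limma adjusted p = 0.00302), without IkE5 replicate 2 it was 1.35 (limma adjusted p = 0.000473), without IkE5 replicate 1 it was 0.67 (limma adjusted p = 0.374) and without WT replicate 2 it was 0.40 (limma adjusted p = 0.729). Genome-wide, 0.579% of windows passed with more coverage in IkE5 and 0.293% with less.

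The H3K27ac length at Prdm1 was also taken by part of the window. From the listed start to the far end of the gene, H3K27ac covered 15.3 and 4.17 kb in WT and 17.2 and 13.9 kb in IkE5. In the 50 kb beyond, it covered 8.12 and 1.97 kb in WT and 18.8 and 5.99 kb in IkE5. Upstream of the start, coverage was 3.08 and 1.18 kb in WT and 5.06 and 1.69 kb in IkE5. These lengths are unscaled. WT 2 was lowest in each of the 3 parts, and in each of them WT 1 exceeded IkE5 2, so the groups overlapped before scaling. The parts were not compared after scaling.

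Of the 17 H3K27ac regions at Prdm1 5 were in all 4 libraries (31.2% of all H3K27ac regions), 0 were WT only (4.69% of all) and 1 was IkE5 only (3.90% of all). The region over the start (chr10:44452805-44459939) covered 5.16 and 1.13 kb in WT and 7.13 and 6.34 kb in IkE5. It was longer in both IkE5 libraries than in both WT libraries, as were 19.1% of the 20229 regions found in all 4 libraries. The larger region within the gene (chr10:44441324-44452669) covered 11.1 and 3.47 kb in WT and 11.2 and 8.44 kb in IkE5, and these groups overlapped. The IkE5 only region (chr10:44409399-44410749), with 1.35 and 0.63 kb, had no factor peak.

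**Figure D2:**
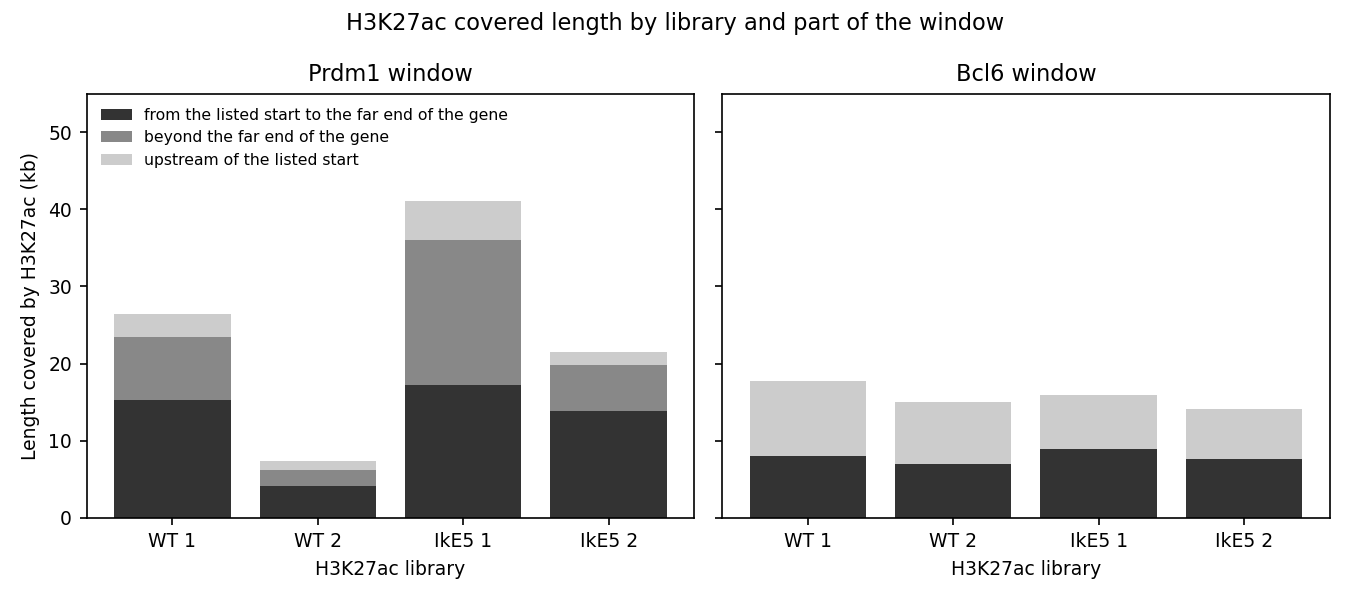
Length covered by H3K27ac (kb, unscaled) in each library at Prdm1 and Bcl6, stacked by part of the window relative to the listed start and the far end of the gene. At Prdm1 the bars run from 7.32 kb in WT 2 to 41.0 kb in IkE5 1, and at Bcl6 all 4 bars lie between 14.1 and 17.8 kb.

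At Bcl6 a compact acetylated domain over the start was common to both genotypes. The H3K27ac region chr16:23980336-23994432 covered 13.43 and 12.58 kb in WT and 13.02 and 12 kb in IkE5. Over the window coverage was 17.8 and 15.0 kb in WT and 15.95 and 14.1 kb in IkE5, and the groups overlapped. The log2 difference of the scaled length was -0.14 ± 0.18 (SE; limma adjusted p = 0.836), and 67.7% of windows had one at least as high. The difference was -0.28 at the lowest when single libraries were left out, and 0.00 at the highest, without WT replicate 2. No H3K27ac was called in the 50 kb beyond the far end of the gene.

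**Figure D3:**
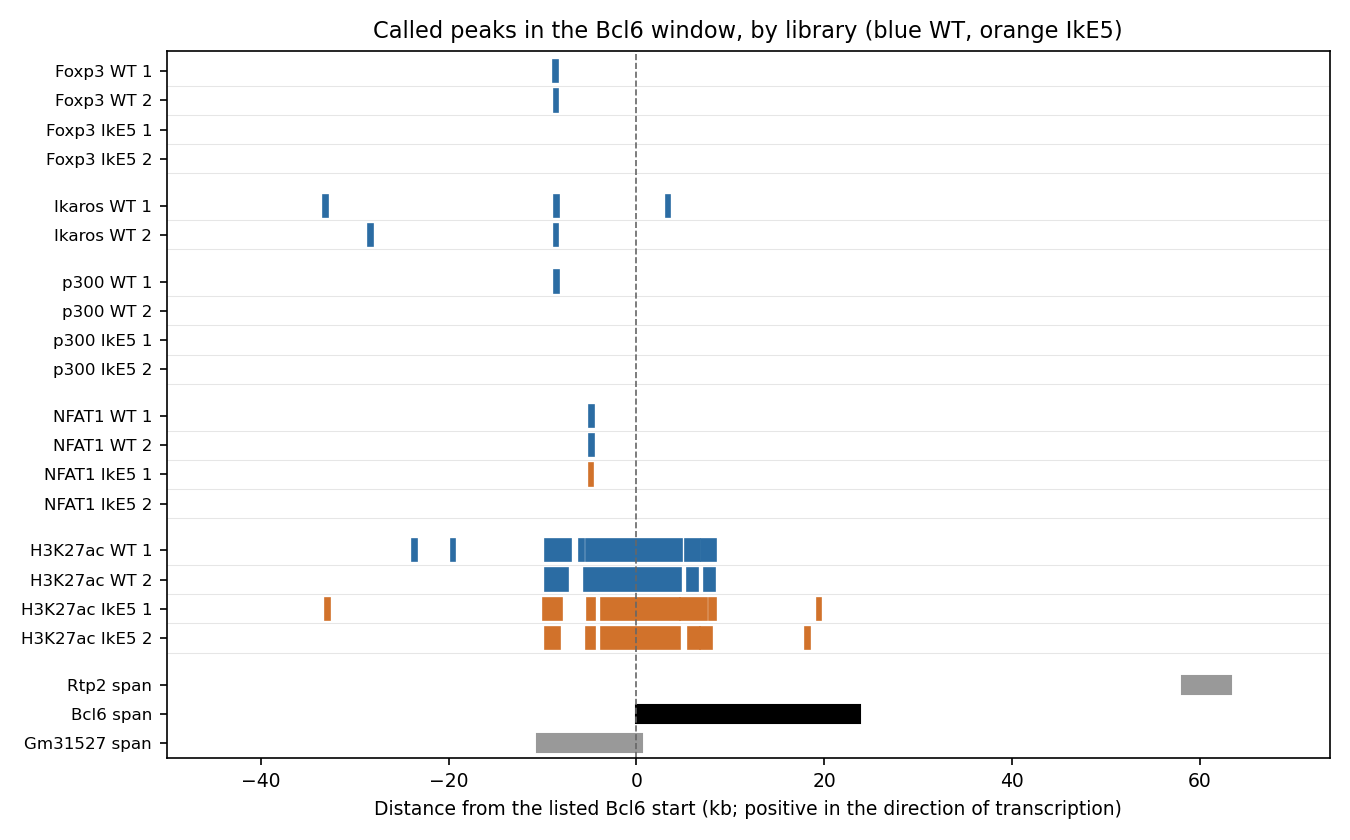
Peaks in the Bcl6 window, drawn as for Prdm1, with 1 row per library (blue WT, orange IkE5) against the distance in kb from the upstream listed start. The Foxp3 rows hold 1 peak in each WT library and 0 in the IkE5 libraries, at the site where both Ikaros libraries have a peak.

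Foxp3 was found at Bcl6 in WT only, at 1 site. That site lay 8.54 kb upstream of the start, within Gm31527 (chr16:23997102-23997691). Each WT Foxp3 library had 1 peak there and each IkE5 library 0 (exact permutation p = 0.33), the order seen in 5.54% of 16497 gene windows with any Foxp3 peak. Both Ikaros libraries overlapped it, as did p300 in WT 1, the only p300 peak of the window. The H3K27ac region around it (chr16:23995795-23998751) was present in all 4 libraries and covered 2.82 and 2.42 kb in WT and 1.93 and 1.60 kb in IkE5. It was thus shorter in both IkE5 libraries, as were 22.6% of the regions found in all 4 libraries.

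NFAT1 had 1 site at Bcl6, 4.82 kb upstream (chr16:23993403-23993932), in both WT libraries and in IkE5 1. The missing peak of IkE5 2 fell in the shortest NFAT1 list. Of the 11 Bcl6 regions of targets mapped in both genotypes, 2 were in all libraries, 1 was WT only and 0 were IkE5 only. Over all 129031 regions of these targets, 26.5% were in all libraries, 5.49% WT only and 4.01% IkE5 only. Left without WT replicate 2, the window had 5 WT only regions, and without IkE5 replicate 1 it had 2. Among the other Ikaros sites of the window none was called in both libraries: 1 lay in the gene, 3.36 kb downstream, and the others 28.3 and 33.1 kb upstream.

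The 2 loci were set beside other genes of the pathway, for which only H3K27ac length has a test across genes. Of all 15721 windows, 7.21% lay above and 6.87% below at an unadjusted limma p under 0.05, and 46.4% had a positive difference. Of 11 regulators of Prdm1, 0 passed limma (1 at an unadjusted p under 0.05, with less coverage in IkE5), with a median log2 difference of 0.01. Irf4 and Batf, which activate Prdm1 in T cells, had 0.30 ± 0.29 and 0.58 ± 0.38 (SE), and Bach2, which represses it, had -0.80 ± 0.26 (limma adjusted p = 0.204). At Irf4 and Batf the groups overlapped, as the scaled length of WT 1 (51.08 and 37.15 kb) exceeded that of IkE5 2 (40.88 and 29.34 kb). Of the 11 differences 6 were positive, and the list was not divided by whether a gene raises or lowers Prdm1. Of 14 regulators of Bcl6, 0 passed (3 above and 4 below at an unadjusted p under 0.05), with a median of -0.23. Lef1 and Tcf7, factors that sustain Bcl6 in follicular T cells, had -1.39 ± 0.34 and -0.62 ± 0.30 (SE), and Maf, a factor of helper T cells, had 1.21 ± 0.23 (limma adjusted p = 0.0630).

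Of 12 effector Treg genes, 0 passed limma (4 above and 1 below at an unadjusted p under 0.05), and 11 of 12 differences were positive, with a median of 0.45 against -0.02 over all windows. The list was chosen with earlier results of these data known, so this count and median only describe it. Il10 had 0.97 ± 0.49, Klrg1, an inhibitory receptor gene of terminal effector cells, 1.25 ± 0.28, and Cxcr3, a chemokine receptor gene, 1.49 ± 0.49 (SE). Ccr6, another chemokine receptor gene, had -0.78 ± 0.17. The summed scaled length of the list was 365 and 259 kb in WT and 458 and 399 kb in IkE5, so WT 2 was the lowest here, as it was at Prdm1, and its part in these values was not tested. Of 12 follicular genes, 0 passed (2 above and 0 below at an unadjusted p under 0.05), with a median of 0.02. The differences went both ways, from -0.51 at Ccr7 to 1.06 at Il4, and 6 of 12 were positive. Sh2d1a, the other gene above, had 0.73 ± 0.20, and Cxcr5, the homing receptor gene of B cell follicles, had -0.02 ± 0.18. The list was not divided by whether follicular T cells raise or lower a gene, so its median gives no direction for them. Of 10 corepressor genes, 0 passed (1 above at an unadjusted p under 0.05), with a median of -0.11.

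**Figure D4:**
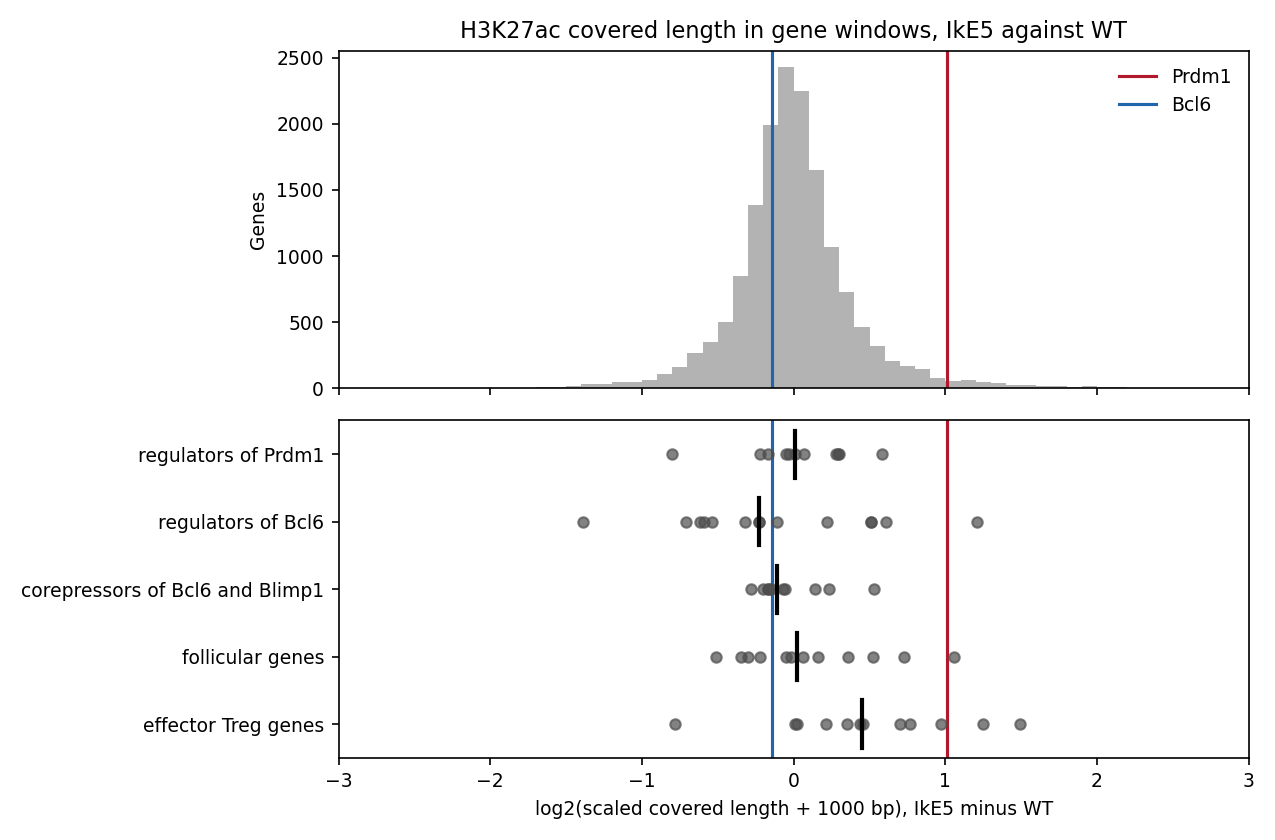
The upper panel is a histogram of the log2 difference in H3K27ac covered length (IkE5 minus WT) over 15721 gene windows, and the lower panel gives each gene of 5 pathway lists as a point and the list median as a bar. Prdm1 (red line) stands at 1.01 and Bcl6 (blue line) at -0.14.

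Markers of other cells that use Prdm1 or Bcl6 were counted in the same test. Of 8 B cell markers 1 passed (1 above and 1 below at an unadjusted p under 0.05), and 4 of 8 differences were positive. The marker that passed was Ebf1, a B cell lineage factor, at -1.38 ± 0.23 (limma adjusted p = 0.0433), and Cd22, a B cell surface receptor gene, had 0.92 ± 0.26 (limma adjusted p = 0.153). The summed scaled length of the list was 49.5 and 56.3 kb in WT and 54.3 and 52.0 kb in IkE5. Of 3 plasma cell markers tested 0 passed (1 above at an unadjusted p under 0.05), with sums of 10.6 and 10.9 kb in WT and 11.2 and 11.7 kb in IkE5. Of 4 CD8 T and natural killer cell markers tested 1 passed (0 above and 2 below at an unadjusted p under 0.05), Cd8a, at -1.73 ± 0.24 (limma adjusted p = 0.0284), and the sums were 26.1 and 26.9 kb in WT and 15.2 and 21.4 kb in IkE5. Of 5 myeloid markers tested 0 passed (1 above and 1 below at an unadjusted p under 0.05), with sums of 34.6 and 34.9 kb in WT and 30.4 and 33.2 kb in IkE5. The part of other cells in the values at Prdm1 and Bcl6 was not tested.

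The profile of each member over the 18 libraries, taken as log2 of the share of a library's covered length in the window (in ppm, + 1), was compared with that of genes covered in at least 9 libraries. For Prdm1 the most alike were Rprml and Gosr2, whose windows overlap (Pearson r = 0.879 for both), followed by Clec2f (0.853), Fer1l6 (0.847) and Crybb2 (0.843), against a median of -0.43 over 14895 genes. For Bcl6, which had a peak in 12 of the 18 libraries, they were Shbg (0.749), Rusc1 and Fdps with overlapping windows (0.741 for both), Frmd8 (0.729) and Bcorl1 (0.727), against a median of 0.117. The points share targets and libraries, so these values only describe likeness.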

How the data were processed

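Peak lists were deposited for 18 of 22 samples, 1 per library; the 4 inputs are not analysed here. The lists deposited by the authors have no header line and hold chromosome, start and end only. The submitters' processing notes name mm10 and, without roles or versions, Bowtie2, MACS2, HOMER, FastQC and bedtools; thresholds and controls are not given in the sources used here. Per the labels' protocols, crosslinking in 1% formaldehyde lasted 5 min for histone libraries and 30 min for factor libraries. Factor peaks were 500 bp wide apart from 4 single peaks, so width carries no signal there.

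Peaks of a target were joined into regions at an overlap of 1 bp, and peaks of all factors into sites. The H3K27ac covered length per gene and 50 kb each side was fitted with limma 3.58.1 (R 4.3.3, trended prior) on log2(length scaled to the library's total + 1000 bp), keeping windows whose mean was 1000 bp or more, and p-values were adjusted by Benjamini-Hochberg at 0.05; this scale understates changes of short coverage, and neighbouring genes share windows. Peak numbers were compared by 2-sided exact permutation. The members and lists were chosen with earlier results of these data known. Named genes are the members, list genes with examples, and the 5 most alike profiles per member. At most 0.745% of intervals were identical between any pair of libraries. Libraries of a target share a number across genotypes, which no label ties to a shared preparation.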

Additional observations from a re-analysis of the deposited data

How the results depend on the processing

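Of 57 alternatives that kept all libraries, 48 were counted as unchanged, by a rule that differed between results. For H3K27ac length this meant the same direction and call, and for peak differences the same direction alone. Region counts had to stay close to those reported, and the Ikaros share within the binomial interval of the reported one. That interval is wide, so a share of 38.5% against 61.5% counted as unchanged. The limits below are those of lists without scores: a stricter peak threshold could not be run, and depth is unknown. With the library number as a replicate block, the H3K27ac difference at Prdm1 was the same size, 1.01, and passed (limma adjusted p = 7.99e-05), and at Bcl6 it was -0.14 (limma adjusted p = 0.509); the block moved the windows called from 91 higher and 46 lower to 1377 and 1327, with 1 residual degree of freedom. Same-numbered libraries deviated together over genes (r = 0.51), but no label ties the numbers to a shared preparation. Without scaling 0 windows passed, and scaling to the number of peaks gave 313 higher and 104 lower; a pseudocount of 100 bp gave 51 and 11, and no filter 8 and 7. The difference at Prdm1 did not pass under any of these 4.

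With the gene body alone the Bcl6 difference was 0.10, the WT only regions were 1 at Prdm1 and 0 at Bcl6, and the IkE5 only regions at Prdm1 were 0; within 10 kb of Prdm1 there was 1 of the latter, against 4, and the Foxp3 peak difference at Prdm1 was -1.5. Per 10000 peaks the NFAT1 difference at Prdm1 was 2.15. Of Foxp3 regions in both WT libraries 100% overlapped Ikaros. Ending Prdm1 at its listed start, chosen after seeing the data, left 2 WT only and 3 IkE5 only regions.

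Without 1 library the H3K27ac difference ran from 0.40 to 1.61 at Prdm1 and from -0.28 to 0.00 at Bcl6. WT only regions ran from 3 to 5 at Prdm1 and from 1 to 5 at Bcl6, and IkE5 only regions from 4 to 15 and from 0 to 2, the 15 at Prdm1 without IkE5 replicate 2; fewer libraries make each class easier to meet. Peak differences at Prdm1 ran from -2.5 to 3.5 for Foxp3, 2 to 3 for p300, -1.5 to 0.5 for NFAT1 and 0 to 6 for H3K27ac, and at Bcl6 they were -1 for Foxp3 throughout, -1 to 0 for p300, -1 to 0 for NFAT1 and -0.5 to 2.5 for H3K27ac. The cause of these movements was not tested.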
